A study of Mus musculus with 6 samples.

Results

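Murine embryonic stem cells (ESCs) with reduced levels of SMC2 were compared with ESCs with reduced levels of CAPH2 by RNA-seq. The comparison uses 4 of the 6 libraries of the series, SMC2 R1 and R2 against CAPH2 R1 and R2, and is the only one with 2 libraries on each side. Of 26073 RefSeq rows, 18245 had at least 10 counts in at least 2 of the 4 libraries and were tested, and these rows stand for 14410 genes. All libraries came from V6.5 cells, an ESC line of mixed C57BL/6-129 background that was grown on irradiated mouse embryonic fibroblasts and kept a passage off them before RNA was taken. Every culture received a lentiviral short hairpin with polybrene and was selected with puromycin. The other libraries, 1 with a hairpin against GFP (the control) and 1 with a hairpin against SMC1, are given as single values. R1 and R2 of a target are different hairpin clones and not repeat cultures, so the spread between them is the error of the comparison, and all p-values measure only the spread between these 4 libraries.

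Condensins are ring-shaped complexes that fold and compact chromosomes. Condensin I and condensin II share the ATPase pair SMC2 and SMC4, and each adds its own kleisin and HEAT-repeat subunits: CAPH, CAPG and CAPD2 in condensin I, and CAPH2, CAPG2 and CAPD3 in condensin II. Condensin II stays in the nucleus through interphase, whereas condensin I gains access to chromosomes when the nuclear envelope breaks down. A hairpin against SMC2 therefore targets both complexes and a hairpin against CAPH2 targets condensin II alone.

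The summed counts of the 4 libraries lay between 25467427 and 31337313, and the synthetic ERCC RNAs, which were added by cell number, took 1.11% and 1.77% of them in the CAPH2 libraries and 1.11% and 1.16% in the SMC2 libraries. The markers of the labelled cell type were present throughout, with a summed level of 8 ESC markers (Pou5f1, Nanog, Esrrb and others) of 3117 and 3254 RPKM with CAPH2 and 3302 and 3295 RPKM with SMC2. The 9 fibroblast markers, in contrast, summed to 85.9 and 60.1 RPKM with CAPH2 and 68.0 and 59.8 RPKM with SMC2, and their member Lum had 0 counts in both CAPH2 libraries and 1 in each SMC2 library. CAPH2 R1 thus had the highest fibroblast sum of the 4.

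The target transcripts were examined first. Smc2 (chr4:52452121-52501131, mm9, plus strand) had a CPM (counts scaled to library size with TMM) of 75.7 and 76.9 with SMC2 and of 168 and 162 with CAPH2. In RPKM, which the GFP library shares, both SMC2 libraries lay below the control (18.8 in R1, against 26.6 with GFP). Both CAPH2 libraries (42.3 and 40.6) and the single SMC1 library (41.9) lay above the control. The difference between the groups thus joins a lower value with SMC2 to a higher value with CAPH2. It is not the depth of depletion against GFP. The log2 difference, SMC2 minus CAPH2, was -1.12 ± 0.065 (SE), with an adjusted p of 0.000329 in the edgeR quasi-likelihood test. With the libraries scaled to the ERCC RNAs the difference was -0.86 ± 0.46 (SE), with an edgeR adjusted p of 0.889, so the call rests on scaling by the genes themselves. Ncaph2 (chr15:89186153-89203259, mm9, plus strand), which encodes CAPH2, had an RPKM of 16.9 and 27.9 with CAPH2, 63.9 and 64.9 with SMC2 and 80.2 with GFP. Its log2 difference was 1.54 ± 0.177 (SE), and its edgeR adjusted p of 0.0511 lay just outside the threshold of 0.05. Ncaph2 was called in edgeR with DESeq2 size factors, without the filter on low counts and with 1 row per gene. It was also called with a block on the replicate number and with each library's trend on exon length removed. It was not called with DESeq2 itself, with library totals only, with at least 50 counts in 2 libraries or with ERCC scaling (edgeR adjusted p = 0.216). Its log2 difference was 1.21 without CAPH2 R1, 1.94 without CAPH2 R2, 1.55 without SMC2 R1 and 1.53 without SMC2 R2. At Ncaph2 the log2 difference of CAPH2 R1 minus R2 was -0.73, with less of the transcript left in R1, while at Smc2 that of SMC2 R1 minus R2 was -0.022.

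The other subunits were close to equal in the 2 groups. Smc4, the partner of SMC2 in both complexes, had an RPKM of 63.8 and 63.0 with CAPH2 and 60.9 and 60.9 with SMC2 (log2 difference -0.047 ± 0.060, SE). In condensin I, Ncapd2 differed by 0.058 ± 0.069, Ncapg by -0.11 ± 0.067 and Ncaph by 0.01 ± 0.066. In condensin II, Ncapd3 differed by -0.017 ± 0.071 and Ncapg2 by 0.043 ± 0.072. None of these 6 passed the edgeR test (adjusted p = 1.0 for each), and their intervals include 0 at less than 2 SE.

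**Figure D1:**
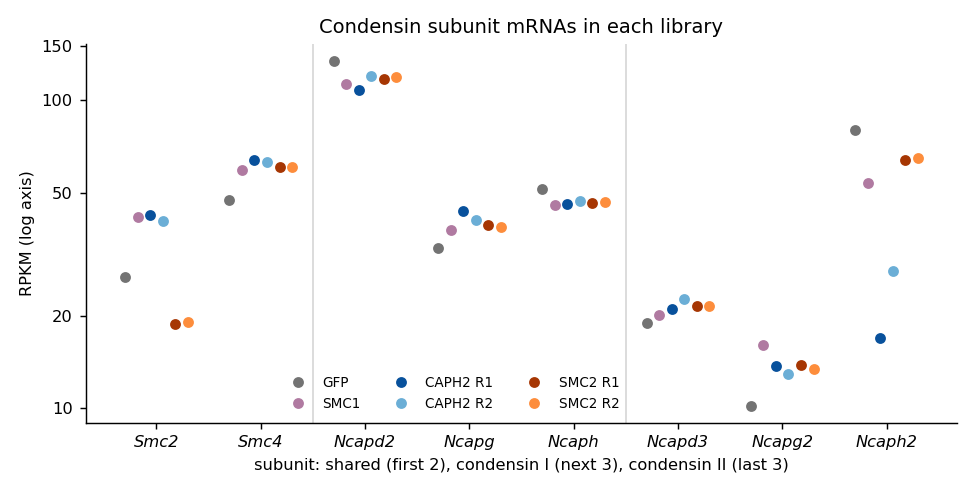
RPKM (log axis) of the 8 condensin subunit transcripts, with 1 point for each of the 6 libraries. Smc2 is lowest in the SMC2 libraries (18.8 in R1) and Ncaph2 stands at 16.9 and 27.9 in the CAPH2 libraries, while the SMC2 and CAPH2 libraries lie close together at the other 6 subunits.

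Beyond the targets most pairs of libraries across the groups had a smaller median difference than the hairpins of 1 target. Over the 11177 genes with a mean of at least 100 counts, the median absolute log2 difference in CPM was 0.0986 between the CAPH2 hairpins and 0.0913 between the SMC2 hairpins. Between an SMC2 and a CAPH2 library it was 0.0844, 0.115, 0.0742 and 0.087 for the 4 possible pairs. By this median 3 of the 4 pairs across targets were closer than the hairpins of either target, and SMC2 R2 against CAPH2 R1 was farther apart. A difference of at least 0.5 was found for 284 genes between the CAPH2 hairpins, 88 between the SMC2 hairpins and 26 between the group means, of which 9 were higher and 17 lower with SMC2. A mean of 2 libraries varies less than a single library by construction. Against CAPH2 R1, SMC2 R1 and R2 differed by at least 0.5 at 188 and 316 genes, more than the 88 between the SMC2 hairpins. Against CAPH2 R2 they did so at 79 and 72 genes.

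**Figure D2:**
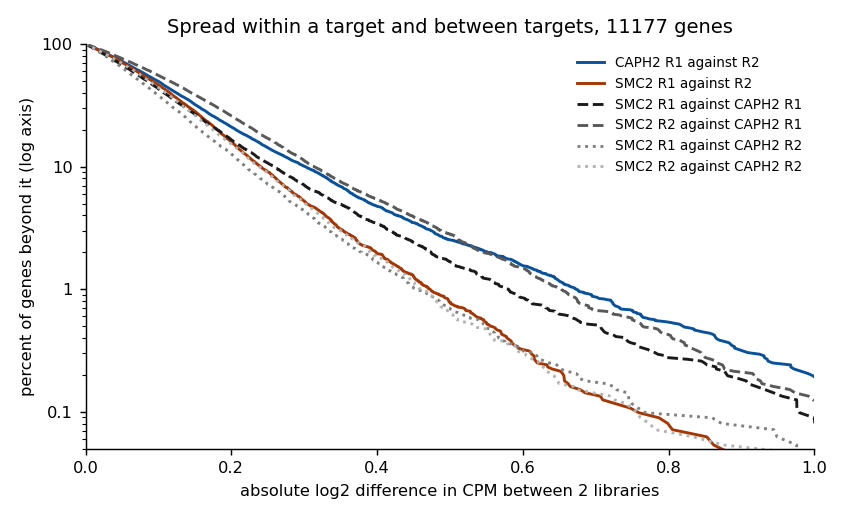
Percent of the 11177 genes (log axis) whose absolute log2 difference in CPM between 2 libraries exceeds the value on the horizontal axis. The solid lines compare hairpins of 1 target and the broken lines compare an SMC2 with a CAPH2 library. At 0.5 the line for SMC2 R2 against CAPH2 R1 is the highest (316 genes), followed by that between the CAPH2 hairpins (284 genes).

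Smc2 was the only row with an edgeR adjusted p below 0.05, which is 0.00548% of the rows tested. At an unadjusted p below 0.05, 313 rows were higher and 252 lower with SMC2. Counted once per gene, 247 genes (1.71%) were higher and 207 genes (1.44%) lower at that threshold, and both SMC2 libraries lay above both CAPH2 libraries at 2229 genes (15.5%) and below them at 2131 genes (14.8%). The number of calls depended on which library was present. Without CAPH2 R2 there were 403 calls, without CAPH2 R1 30, without SMC2 R1 5 and without SMC2 R2 1; in these fits the library left alone in its group is assumed to vary like the others. Thus the genes named in the following, Smc2 apart, are given by their values in each library, and each had an adjusted p above 0.05 in the edgeR test as described, with all 4 libraries, TMM scaling and no block. With DESeq2 in its place, Rmrp, Rpph1, Tet1 and Kmt2d were called beside Smc2, and with ERCC scaling in edgeR Rmrp and Rpph1 were among the 4 calls. Directions are relative to the median gene. When the libraries were scaled to the ERCC RNAs instead, the median of all rows was 0.26 in place of -0.0037, so that all medians over the 4 libraries that are given as negative for gene lists in the following became positive, except that of mesendoderm. CAPH2 R2 had the highest ERCC share of the 4.

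**Figure D3:**
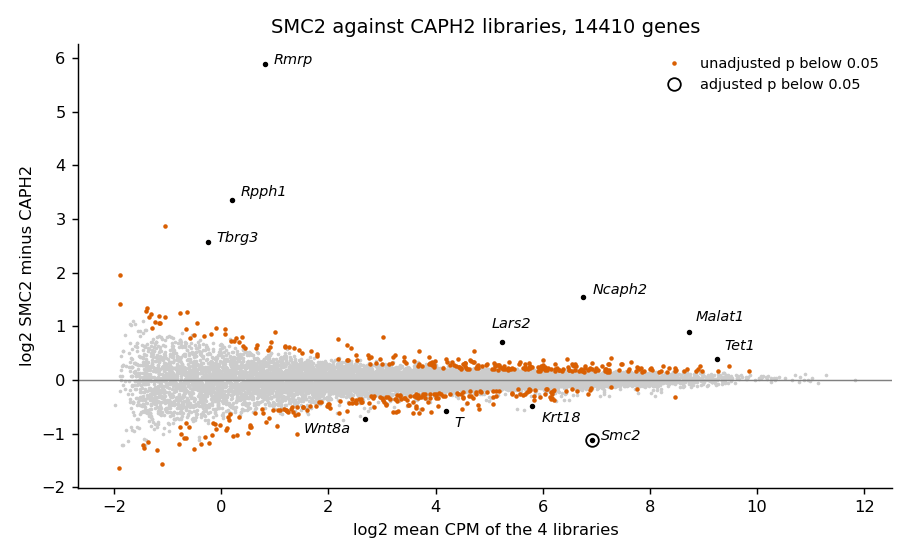
Log2 difference (SMC2 minus CAPH2) of the 14410 genes against the log2 of their mean CPM in the 4 libraries; coloured points have an unadjusted p below 0.05 and the circle marks an adjusted p below 0.05. Smc2 at -1.12 is the circled point. Rmrp at 5.88, Rpph1 at 3.36, Tbrg3 at 2.56 and Ncaph2 at 1.54 are the most distant labelled genes above 0.

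The largest difference beyond the targets was in Rmrp, the RNA of the endonuclease RNase MRP, which takes part in ribosomal RNA processing and is transcribed by RNA polymerase III. The sequence of this gene is shown because the difference rests on so short a transcript (mm9, chr4:43505657-43505931, minus strand, 275 bases, written 5′ to 3′).
Rmrp: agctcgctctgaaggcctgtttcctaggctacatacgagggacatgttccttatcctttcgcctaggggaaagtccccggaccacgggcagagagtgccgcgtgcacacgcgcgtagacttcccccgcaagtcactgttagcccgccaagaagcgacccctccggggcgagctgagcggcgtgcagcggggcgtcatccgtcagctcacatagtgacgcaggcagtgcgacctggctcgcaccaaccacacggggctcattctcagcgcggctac
Rmrp had 2 and 1 counts in the CAPH2 libraries, 39 and 151 with SMC2 and 106 with GFP. The ratio of the summed counts per depth, SMC2 to CAPH2, was 62.1 (95% exact binomial interval 20.9 to 304, counting error only), and the edgeR adjusted p was 0.727. The groups did not overlap, yet the log2 difference of SMC2 R1 minus R2 was itself -2.06. Rpph1 (chr14:51427122-51427446, mm9, plus strand), the RNA of the related tRNA-processing enzyme RNase P, had 6 and 5 counts with CAPH2, 31 and 84 with SMC2 and 63 with GFP, a ratio of 10.3 (5.52 to 21.1). The same order was found for Malat1, an abundant nuclear noncoding RNA, with an RPKM of 56.3 and 57.1 with CAPH2 and 70 and 138 with SMC2 (log2 difference 0.89 ± 0.232, SE). Lars2, a mitochondrial leucyl-tRNA synthetase, had 9.54 and 10.3 RPKM with CAPH2 and 11.7 and 20.4 RPKM with SMC2. In these 4 genes SMC2 R2 was the highest of the 4 libraries and SMC2 R1 lay between it and the CAPH2 pair. Without SMC2 R1, Rmrp had an edgeR adjusted p of 0.000606, and without SMC2 R2 one of 0.184. The library kit selects polyadenylated RNA, and the mature Rmrp and Rpph1 RNAs carry no poly(A) tail. Among the 93 small and structural RNAs tested these were the 2 with an unadjusted p below 0.05, both higher, against 1.71% of all genes. The list as a whole had a median of -0.06.

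Several genes of early mesendoderm, the cells that form in the primitive streak under Wnt and Nodal signals, had lower values with SMC2. Of 14 genes tested on this list 13 had a negative log2 difference, which includes 4 with an unadjusted p below 0.05 (T, Fgf8, Wnt3 and Foxa2), and both SMC2 libraries lay below both CAPH2 libraries at 7 genes, against 1.44% and 14.8% of all genes. The list had a median of -0.36, against -0.0042 for all genes. Foxa2 rests on few counts, 23 and 21 with CAPH2 and 16 and 6 with SMC2. Its SMC2 hairpins differed by 1.15, against -1.02 between the groups. With a minimum of 50 counts in 2 libraries, 3 of 11 genes were lower at an unadjusted p below 0.05. T, the transcription factor Brachyury that defines nascent mesoderm, had an RPKM of 13.3 and 15.2 with CAPH2, 10.2 and 8.84 with SMC2 and 6.93 with GFP. Its log2 difference was -0.57 ± 0.115 (SE), with an unadjusted p of 0.000674 and an adjusted p of 1.0 in the edgeR test. All 4 knockdown libraries were above the control and the CAPH2 pair was the farther from it. Fgf8, a fibroblast growth factor of the streak, had 22.8 and 26.3 RPKM with CAPH2 and 18.4 and 14.3 RPKM with SMC2, against 19.6 RPKM with GFP. Other markers of these cells overlapped between the groups: Mixl1 had 1.05 and 1.32 RPKM with CAPH2 and 1.18 and 0.921 RPKM with SMC2, and Gsc and Mesp1 likewise had SMC2 R1 above CAPH2 R1. The medians of the list for the 4 pairs of libraries were -0.14, -0.28, -0.37 and -0.46, all of the same sign, and the larger values were those against CAPH2 R2. The log2 difference of T was -0.67 without CAPH2 R1, -0.48 without CAPH2 R2, -0.68 without SMC2 R1 and -0.47 without SMC2 R2. The median of the list was -0.37 without CAPH2 R1, -0.35 without SMC2 R1 and -0.28 without SMC2 R2. Without CAPH2 R2 the median of the list was -0.13 with 6 of the 14 genes higher, and with ERCC scaling it was -0.067. In bulk RNA, fewer cells of a type and less RNA per cell cannot be told apart.

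The same direction was seen in Wnt ligands and in genes that Wnt signals induce. Wnt3 (chr11:103635489-103679335, mm9, plus strand), the ligand that starts the primitive streak, had 5.42 and 4.03 RPKM with CAPH2, 3.25 and 2.99 RPKM with SMC2 and 1.82 RPKM with GFP. Wnt8a, a ligand of the same stage, had 8.55 and 5.46 RPKM with CAPH2, 3.97 and 4.48 RPKM with SMC2 and 1.83 RPKM with GFP (log2 difference -0.73 ± 0.208, SE), the most negative value after Smc2 among genes with a mean of at least 100 counts and groups that did not overlap. Sp5, a direct target of the pathway and itself a zinc finger repressor, had 6.54 and 5.88 RPKM with CAPH2 and 4.42 and 4.46 RPKM with SMC2. In each of these genes both CAPH2 libraries were above both SMC2 libraries, and all 4 were above the control. Wnt3 and Wnt8a met a rule that required groups without overlap, and Sp5 was chosen after its values were seen. Their separation is thus no added evidence. Of 28 Wnt effectors and targets tested, 6 were lower at an unadjusted p below 0.05, against 1.44% of all genes. These were Sp5, Wnt8a, Sp8 and Cdx1 and, already counted for mesendoderm, T and Wnt3. Of the list 1 was higher, the receptor Fzd5, against 1.71% of all genes. The remainder did not follow: the median of the list was 0.0048, 14 genes had a positive and 14 a negative difference, and Ctnnb1, which encodes the pathway's effector β-catenin, differed by -0.00055 ± 0.057 (SE). The median of the list was -0.013 without CAPH2 R1 and 0.02 without CAPH2 R2.

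The promoters of 3 of these genes are shown because their transcripts moved in the same direction, with matches to CTTTGAT and CTTTGAA in capitals, on either strand. These letters form the core of the sequence that TCF and LEF, the DNA-binding partners of β-catenin, recognize. The sequences run from 250 bases before to 50 bases after the annotated start (RefSeq, GRCm38.p6, 5′ to 3′ on the strand of the gene; T at chr17:8434173-8434472, Sp5 at chr2:70474673-70474972, Wnt3 at chr11:103773925-103774224, all on the plus strand).
T: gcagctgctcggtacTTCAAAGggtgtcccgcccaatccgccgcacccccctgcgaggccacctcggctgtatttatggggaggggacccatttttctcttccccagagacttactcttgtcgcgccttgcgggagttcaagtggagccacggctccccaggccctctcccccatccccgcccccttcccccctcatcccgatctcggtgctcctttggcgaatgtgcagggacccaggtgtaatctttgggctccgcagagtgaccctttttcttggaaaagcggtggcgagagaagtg
Sp5: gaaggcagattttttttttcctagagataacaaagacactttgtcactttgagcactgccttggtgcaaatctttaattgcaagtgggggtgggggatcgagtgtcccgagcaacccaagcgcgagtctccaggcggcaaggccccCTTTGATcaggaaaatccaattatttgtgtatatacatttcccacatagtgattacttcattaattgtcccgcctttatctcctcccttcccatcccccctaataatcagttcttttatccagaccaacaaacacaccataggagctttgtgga
Wnt3: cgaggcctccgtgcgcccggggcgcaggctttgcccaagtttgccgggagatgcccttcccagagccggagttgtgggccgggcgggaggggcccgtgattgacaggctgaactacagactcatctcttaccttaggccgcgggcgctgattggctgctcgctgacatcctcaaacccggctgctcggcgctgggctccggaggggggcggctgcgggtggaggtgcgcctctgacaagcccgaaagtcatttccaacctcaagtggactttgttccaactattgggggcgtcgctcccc
T held 1 match, at -235 from the start on the opposite strand, and Sp5 held 1 match, at -104. The window of Wnt3 held none. Of the 7 genes searched (T, Sp5, Wnt3, Wnt8a, Fgf8, Sp8 and Cdx1), 4 had a promoter in the table. Among all 32851 promoters of this length 2842 (8.65%) held a match to either sequence, and a match is a description of the letters only.

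Some trophectoderm genes, which mark the outer layer of the blastocyst, also had lower values with SMC2. Both SMC2 libraries lay below both CAPH2 libraries at 8 of 15 genes tested and above them at 0, and 5 genes had an unadjusted p below 0.05 (Krt18, Krt8, Krt19, Gata3 and Tfap2a), against 14.8% below, 15.5% above and 1.44% lower among all genes. Krt18, a simple-epithelium keratin, had 69.4 and 54.5 RPKM with CAPH2, 43.0 and 45.3 RPKM with SMC2 and 61.0 RPKM with GFP, a log2 difference of -0.48 ± 0.108 (SE). Krt8, its filament partner, had 56.5 and 44.5 RPKM with CAPH2 and 40.2 and 40.4 RPKM with SMC2. For these keratins the SMC2 libraries were close to each other and CAPH2 R1 stood highest. Gata3, a transcription factor of the lineage, had 1.19 and 1.09 RPKM with CAPH2 and 0.801 and 0.731 RPKM with SMC2. The defining gene Elf5 had 1 count or fewer in every library, and Cdx2 had 0.959 and 0.916 RPKM with CAPH2 and 0.973 and 0.708 RPKM with SMC2, so the 2 groups overlapped there. The median of the list was -0.14 and its sign changed with ERCC scaling, to 0.078. The median was -0.17 without CAPH2 R1, -0.29 without CAPH2 R2, -0.22 without SMC2 R1 and -0.32 without SMC2 R2.

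In a further set of genes CAPH2 R1 stood above the other 3 libraries. Contractile genes controlled by SRF and YAP, which respond to actin tension, had a median of -0.14. At an unadjusted p below 0.05, 5 of 31 were lower and 0 higher, against 1.44% and 1.71% of all genes. Acta1, a skeletal actin, had 17.3 RPKM in CAPH2 R1, 11.6 in CAPH2 R2 and 9.01 and 9.78 with SMC2. Zyx, a focal adhesion protein, had 39.8 and 30.8 RPKM with CAPH2 and 26.6 and 27.4 RPKM with SMC2. The list differed by a median of 0.29 between the CAPH2 hairpins. Its median was -0.0064 without CAPH2 R1, -0.28 without CAPH2 R2, -0.18 without SMC2 R1 and -0.091 without SMC2 R2. With ERCC scaling the median was 0.11. Targets of p53, the mediator of the DNA damage response, followed the same course. Cdkn1a, the cell cycle inhibitor p21, had 82.2 RPKM in CAPH2 R1 and 51.3, 51.6 and 50.8 RPKM in the other 3 libraries. The median of the 29 p53 targets was -0.34 and -0.20 against CAPH2 R1, and 0.044 and 0.12 against CAPH2 R2, so its sign changed with the hairpin. With all 4 libraries 1 of them, the death receptor Fas, was lower at an unadjusted p below 0.05. Fas had few counts, 41 and 16 with CAPH2 and 7 and 16 with SMC2. The median of the list moved from -0.10 to -0.27 without CAPH2 R2 and to 0.13 with ERCC scaling. Fibroblast genes, which feeder cells would carry, moved with CAPH2 R1 as well (21 genes, 0 with an unadjusted p below 0.05, median -0.28 and -0.23 against CAPH2 R1 and 0.10 and 0.016 against CAPH2 R2). Their part in the lower values of the contractile genes was not tested.

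**Figure D4:**
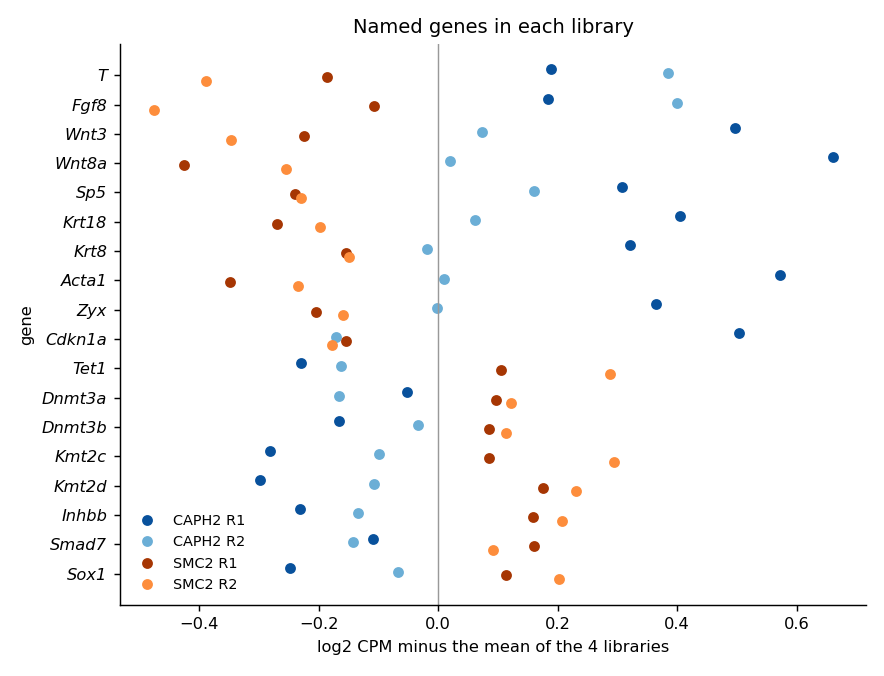
Log2 CPM of 18 named genes in each of the 4 libraries, minus the mean of the 4, relative to the median gene. In the upper genes (T to Zyx) both SMC2 libraries lie left of both CAPH2 libraries, in Cdkn1a only CAPH2 R1 stands apart, and in the lower genes (Tet1 to Sox1) both SMC2 libraries lie right of both CAPH2 libraries.

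Several enzymes that write and remove DNA methylation had higher values with SMC2. Of 14 genes tested on this list, 4 were higher at an unadjusted p below 0.05 and 0 lower, and both SMC2 libraries lay above both CAPH2 libraries at 5, against 1.71% and 15.5% of all genes. Tet1 (chr10:62267319-62342762, mm9, minus strand), a dioxygenase that oxidizes 5-methylcytosine, had 49.3 and 51.4 RPKM with CAPH2, 61.6 and 70 RPKM with SMC2 and 46.1 RPKM with GFP (log2 difference 0.40 ± 0.073, SE). Tet2, a second enzyme of this kind, had 17.2 and 19.4 RPKM with CAPH2 and 20.1 and 23.1 RPKM with SMC2. The de novo methyltransferases Dnmt3a (34.1 and 31.4 RPKM with CAPH2, 37.4 and 38.1 RPKM with SMC2) and Dnmt3b (114 and 125 RPKM with CAPH2, 135 and 138 RPKM with SMC2) were ordered in the same way. Both SMC2 libraries exceeded both CAPH2 libraries and the GFP value in these 4 genes. The median of the list was 0.095, with 3 of the 14 genes lower, and it was 0.019 without SMC2 R2 and 0.20 without SMC2 R1. Dnmt3l, the cofactor of the methyltransferases, differed by -0.019 ± 0.081 (SE). The histone H3 lysine 4 methyltransferases Kmt2c (5.64 and 6.37 RPKM with CAPH2, 7.2 and 8.34 RPKM with SMC2) and Kmt2d (8.35 and 9.49 RPKM with CAPH2, 11.5 and 12 RPKM with SMC2) were higher by 0.38 ± 0.092 and 0.41 ± 0.076 (SE). In the RNA interference machinery Tnrc6b and Ago2 were higher by 0.30 and 0.29, the 2 of 17 genes with an unadjusted p below 0.05. Without SMC2 R2 these 2 genes were higher by 0.23 and 0.16.

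Most of these transcripts are long, and the difference between the groups moved with exon length. Among genes with a mean of at least 100 counts, the median log2 difference was -0.028 for the 2491 genes with 1000 to 2000 exonic bases, 0.015 for 2078 genes with 4000 to 6000, 0.081 for 259 genes with 8000 to 10000 and 0.11 for 199 genes with 10000 or more. In this last class 48 genes were higher and 1 was lower at an unadjusted p below 0.05, against 198 and 147 of all 11177 genes of that mean. Both SMC2 libraries lay above both CAPH2 libraries at 103 genes of the class and below them at 4, against 1700 and 1597. The class was carried mostly by SMC2 R2, with a median of 0.20 and 0.17 for SMC2 R2 against the CAPH2 libraries and 0.054 and 0.052 for SMC2 R1. The SMC2 hairpins themselves differed with length: the median of R1 minus R2 was 0.13 at 500 to 1000 bases and -0.14 in this class. The median of the class was 0.059 without SMC2 R2 and 0.18 without SMC2 R1. When each library's trend on exon length was removed, an alternative added after the trend was seen, 7 genes of the class were higher and 7 lower. The trend was fitted on these same genes, so this balance follows largely from the procedure (class median 0.0015). Tet1 then differed by 0.26 ± 0.054, Kmt2d by 0.22 ± 0.076, Kmt2c by 0.22 ± 0.073 and Dnmt3b by 0.18 ± 0.059 (SE), with unadjusted p-values of 0.000875, 0.0148, 0.014 and 0.011 in the edgeR test. Dnmt3a (0.13 ± 0.065, unadjusted p = 0.0777) and Tnrc6b (0.14 ± 0.082, unadjusted p = 0.123) no longer passed the unadjusted threshold in that fit. T, Krt18 and Smc2 kept their direction in it, at -0.55, -0.45 and -1.15.

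**Figure D5:**
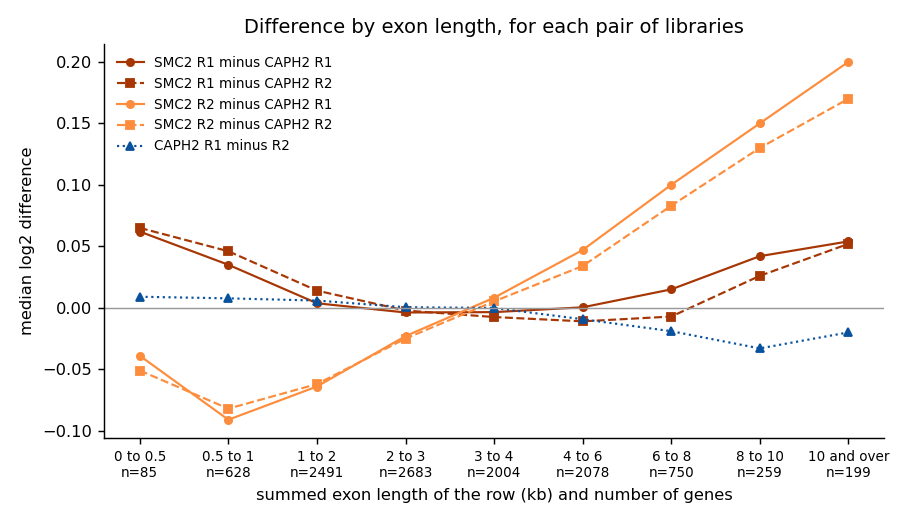
Median log2 difference for pairs of libraries against the summed exon length of the row, in 9 classes of genes with a mean of at least 100 counts (number of genes under each class). The lines with SMC2 R2 reach 0.20 and 0.17 in the longest class, and those with SMC2 R1 0.054 and 0.052. The line between the CAPH2 hairpins stays between -0.033 and 0.009. The pair of SMC2 hairpins is not drawn. Its median was 0.13 at 500 to 1000 bases and -0.14 in the longest class.

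Components of Nodal and BMP signaling differed in both directions. Inhbb, an activin subunit, had 17.0 and 18.2 RPKM with CAPH2, 22.1 and 22.9 RPKM with SMC2 and 23.6 RPKM with GFP (log2 difference 0.37 ± 0.074, SE; unadjusted p = 0.000659 in the edgeR test). Smad7, a feedback inhibitor of the pathway, had 27.3 and 26.6 RPKM with CAPH2 and 32.6 and 31.1 RPKM with SMC2. The hairpins of each target were close to each other at both genes. Nodal itself, in contrast, had 54.4 and 43.7 RPKM with CAPH2 and 41.1 and 42.3 RPKM with SMC2, and Id1, a BMP target, differed by -0.22 ± 0.085 (SE). Of 24 genes on this list 2 were higher and 2 lower at an unadjusted p below 0.05, against 1.71% and 1.44% of all genes. The median was 0.0014.

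Pluripotency genes differed by small amounts. Pou5f1, which encodes OCT4, had 1107 and 1128 RPKM with CAPH2, 1173 and 1134 RPKM with SMC2 and 1285 RPKM with GFP. Of 31 genes of core and naive pluripotency 3 were higher at an unadjusted p below 0.05 (Tet1, Dppa5a and Tet2) and 0 lower. Among all genes it was 1.71% and 1.44%. On this list 23 genes had a positive difference, against 48.3% of all genes. Both SMC2 libraries lay above both CAPH2 libraries at 6 and below them at 0, against 15.5% and 14.8%. Tet1 and Tet2 are also on the DNA methylation list. The median of the pluripotency list was 0.051. This median was 0.12 and 0.10 against CAPH2 R1 and -0.0026 and -0.0097 against CAPH2 R2. Among 17 genes of the formative and primed epiblast 2 were higher and 2 lower at that threshold. Neural lineage genes had a median of 0.11, with 2 of 22 higher and 1 lower at an unadjusted p below 0.05. The neural median was 0.07 without CAPH2 R1 and 0.18 without CAPH2 R2. Sox1, an early neural transcription factor, had 14.8 and 16.8 RPKM with CAPH2 and 18.9 and 20.1 RPKM with SMC2, whereas the intermediate filament Vim had 316 and 258 RPKM with CAPH2 and 241 and 217 RPKM with SMC2. Primitive endoderm genes had a median of -0.06, with 1 of 24 higher (Lrp2) and 4 lower at an unadjusted p below 0.05; that median was -0.016 without CAPH2 R2, -0.14 without SMC2 R1 and 0.22 with ERCC scaling.

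Cytoplasmic ribosomal protein genes had 8 of 84 higher and 0 lower at an unadjusted p below 0.05, and both SMC2 libraries lay above both CAPH2 libraries at 28 and below them at 5, against 1.71% higher, 15.5% above and 14.8% below among all genes. Rpl32l had 10.8 and 10.4 RPKM with CAPH2 and 15.9 and 17.1 RPKM with SMC2, and Rps2 6.49 and 6.33 RPKM against 8.36 and 9.28 RPKM. Rpl8, an abundant member of the list, had 2745 and 2790 RPKM with CAPH2 and 2783 and 2580 RPKM with SMC2, and differed by -0.034 ± 0.062 (SE). Rpl32l, Rps2, Rplp0, Ftl1 and Pgam1 have near-identical copies in the genome, and reads with several alignments were discarded by the authors. The values of these genes are thus uncertain. Of the 8 higher genes only Rps20 was abundant, with 638 and 660 RPKM with CAPH2 and 705 and 765 RPKM with SMC2. The others lay between 4.32 and 40.3 RPKM in the 4 libraries. Whether discarded reads also affect the rest of them was not tested. The median of the list was 0.1 without SMC2 R2 and 0.021 without SMC2 R1, in place of 0.076.

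Metabolic and stress lists separated the CAPH2 hairpins more than the targets. Genes of cholesterol synthesis and uptake were higher with SMC2 in 23 of 24 cases, but the median was 0.23 and 0.22 against CAPH2 R1 and -0.025 and -0.047 against CAPH2 R2. The median of the list was 0.24 without CAPH2 R2 and -0.049 without CAPH2 R1. The ATF4 targets of the amino acid stress response had the same form. Of 28 genes 2 were higher at an unadjusted p below 0.05, against 1.71% of all genes. Their median was 0.23 and 0.17 against CAPH2 R1 and 0.0022 and -0.046 against CAPH2 R2. It was 0.2 without CAPH2 R2 and -0.029 without CAPH2 R1. Hypoxia and glycolysis genes differed within both targets, by -0.37 for CAPH2 R1 minus R2 and -0.25 for SMC2 R1 minus R2. Slc2a3, a glucose transporter, had 474 and 616 RPKM with CAPH2 and 484 and 590 RPKM with SMC2, with R2 above R1 in both groups. The median of this list between groups was -0.03, with 2 of 33 genes higher at that threshold, against 1.71% of all genes. This median took either sign when a library was left out. Without CAPH2 R1 it was -0.19 and without CAPH2 R2 it was 0.18.

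In each list of genes of chromosome structure and division, few or 0 had an unadjusted p below 0.05. Among all genes 1.71% were higher and 1.44% lower at this threshold. Of 51 mitotic chromosome and kinetochore genes, 2 were higher at an unadjusted p below 0.05 (Knl1, a kinetochore scaffold, by 0.26, and Mki67, a coat protein of mitotic chromosomes, by 0.20) and 0 lower, with a median of -0.0063. Without SMC2 R2 the median was 0.021 and Mki67 differed by 0.17. Mki67, whose row has 10075 exonic bases, differed by 0.10 with an unadjusted edgeR p of 0.114 once the exon length trend was removed. Top2a, the topoisomerase that works with condensin in compaction, had 170 and 171 RPKM with CAPH2 and 163 and 158 RPKM with SMC2 (log2 difference -0.074 ± 0.058, SE). Of 43 DNA replication genes, 17 cohesin genes, 7 genes of the SMC5/6 complex and 37 clustered protocadherins, 0 had an unadjusted p below 0.05, with medians of -0.028, 0.032, -0.021 and -0.045. The replication median was -0.079 without SMC2 R1 and 0.03 without SMC2 R2, and that of SMC5/6 was 0.047 without SMC2 R2 and 0.02 without CAPH2 R2. At 14 of the 37 protocadherins, many of whose rows share exons, both SMC2 libraries lay below both CAPH2 libraries. This is a larger share than the 14.8% of all genes. The 14 histone genes tested, which make few polyadenylated transcripts, had a median of 0.20, which was 0.067 without SMC2 R2, and 0 genes below that threshold. Of 23 Hox genes 0 passed it (median -0.15, -0.34 without CAPH2 R2, -0.26 without SMC2 R1 and 0.10 with ERCC scaling). The study lists genes as co-occupied by CAPH2 and SMC1, a list chosen partly on these samples and thus not independent evidence. Of these, 1305 were tested, with 45 higher and 20 lower at that threshold and a median of 0.011. Among all 14410 genes 247 were higher, a smaller share than on this list, and 207 lower. By chromosome the medians lay between -0.015 and 0.011.

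The remaining lists gave few genes past the unadjusted threshold, which 1.71% of all genes passed as higher and 1.44% as lower. Each count above 0 given here is a larger share of its list than that. Interferon response had 0 higher and 3 lower of 29, FGF-ERK feedback 0 and 1 of 18, Polycomb 1 (Jarid2) and 0 of 29, germline and meiosis 2 and 1 of 24, imprinted genes 1 and 1 of 30, and 2-cell-like genes 0 and 1 of 9. LincRNA and antisense genes had 2 higher (Malat1 and Kcnq1ot1) and 0 lower of 22. Mitochondrial ribosomal proteins (78), oxidative phosphorylation (79), Myc targets and ribosome biogenesis (33) and heat shock and unfolded protein genes (26) had 0 in either direction, with medians of -0.028, -0.021, 0.026 and -0.043. Without CAPH2 R2 the medians of the heat shock, FGF-ERK and interferon genes were -0.094, 0.0086 and -0.032, in place of -0.043, -0.025 and -0.059. Without SMC2 R2 the medians of the mitochondrial ribosomal and oxidative phosphorylation genes were 0.05 and 0.032.

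Outside the lists, the rule for the largest differences named several genes lower with SMC2 at an unadjusted p below 0.05. Pmp22, a myelin membrane protein, had 15.2 and 11.7 RPKM with CAPH2 and 9.73 and 7.92 RPKM with SMC2. Prss23, a secreted serine protease, had 16.4 and 11.3 RPKM with CAPH2 and 10.8 and 8.02 RPKM with SMC2, while Plin2, a lipid droplet coat protein named for another reason (a call with the replicate block), had 24.8 and 20.7 RPKM against 17.6 and 15.3 RPKM. In these 3 genes R1 was above R2 within both targets. Cyp1b1 (log2 difference -0.61), Jph2 (-0.61), Plxdc2 (-0.60) and Ecm1 (-0.58) were highest in CAPH2 R1, which exceeded CAPH2 R2 by between 0.55 and 0.81. Among genes higher with SMC2, Dpysl2, a microtubule regulator of neurite growth, had 2.98 and 3.34 RPKM with CAPH2, 4.18 and 4.97 RPKM with SMC2 and 5.78 RPKM with GFP. Zfp202, a zinc finger repressor, had 1.38 and 1.55 RPKM with CAPH2 and 1.94 and 2.46 RPKM with SMC2, and Bcl6b 3.34 and 3.86 RPKM against 4.39 and 5.25 RPKM.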

How the data were processed

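The libraries were made with the TruSeq RNA Kit v2, which does not mark strand. Per the labels, the authors used Bowtie and the mm9 build, discarded reads with several alignments, and deposited raw exonic read counts per RefSeq transcript; a read in a shared exon counts for each isoform, and the strand setting is not given in the sources used here. RPKM, deposited beside each count, divides it by exon length and library reads. ERCC rows (92) were left out.

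Counts of the 18245 rows entered the quasi-likelihood test of edgeR 4.0.16 after TMM scaling, and p-values were adjusted by the Benjamini-Hochberg method over all rows (threshold 0.05); the method was tested on simulated data. DESeq2 1.42.0 was an alternative, with other scalings, filters, a block on the replicate number, removal of the exon length trend and leaving out each library. Lists use the row with the highest mean count per gene, and log2 CPM a prior count of 1. Exon length was computed from counts and RPKM. Of 26073 rows, 25349 were named by accession and 702 by overlap with the annotation. Named genes are the condensin subunits, genes with an adjusted p below 0.05 with or without the block, the 12 largest differences in each direction (unadjusted p below 0.05, mean of at least 100 counts, groups without overlap) and up to 4 genes a list (smallest p, highest RPKM); others were chosen after their values were seen. The members and lists were chosen with earlier results of these data known. Some members of the lists are not reported here.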

Additional observations from a re-analysis of the deposited data

Results flagged for a closer look

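Smc2 differed in direction against the single GFP library: both SMC2 libraries were below it and both CAPH2 libraries above it, and the test of the difference between the groups gave a log2 value of -1.12 (edgeR adjusted p = 0.000329). The GFP library has no replicate.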

How the results depend on the processing

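With 1 row called, the number of calls was 15 with the replicate block, 5 with DESeq2, 3 with DESeq2 size factors in edgeR, 4 with ERCC scaling, 8 without the filter, 2 with 1 row per gene and 3 with the exon length trend removed; leaving out 1 library gave 1 to 403. Rows with an unadjusted p below 0.05 that were higher with SMC2, 313 in all 4 libraries, numbered 498 with the replicate block, 149 with DESeq2 and 50 with ERCC scaling (79 to 855 leaving out 1 library). Those lower, 252, numbered 463 with the block, 83 with DESeq2, 1 with ERCC scaling and 403 without the filter (182 to 1071). The genes called with the block were Smc2, Ncaph2, Rmrp, Rpph1, Tbrg3, Malat1, Lars2, Tet1, Kmt2c, Kmt2d, Krt18, Pmp22, Prss23 and Plin2. The labels do not tie the replicate numbers to a batch and there are only 2 pairs, so the block was not preferred; deviations of same-numbered libraries correlated at 0.0441 over all rows and at 0.169 over genes with a mean of at least 100 counts. Smc2 kept its call in each of these fits except ERCC scaling. Of 69 genes recomputed, the direction was kept by all under the block, DESeq2, DESeq2 size factors, no filter and 1 row per gene, and by the 64 that passed a minimum of 50 counts. It was reversed with ERCC scaling for Smc4 (0.21), Ncapg (0.14), Ncapd3 (0.26) and Tagln2 (0.12), with library totals for Ncaph (-0.0015), and with the length trend removed for Ncapg2 (-0.0028). Leaving out 1 library gave a range that crossed 0 for Ncapd2 (-0.025 to 0.14), Ncaph (-0.011 to 0.023), Ncapd3 (-0.082 to 0.04), Ncapg2 (-0.0022 to 0.083) and Cdkn1a (-0.67 to 0.0015). The causes were not tested. The hairpin spread at a mean of at least 500 counts was 0.0842 for CAPH2, 0.0791 for SMC2 and 0.0521 for the group means. Genes with few counts are imprecise, and 2 hairpins per target limit every p-value.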
